A study of Homo sapiens with 26 samples.

Results

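EZH2 is the catalytic subunit of PRC2, the complex that methylates histone H3 on lysine 27 and is known for silencing genes. PRC2 also binds RNA, and the study asked which RNAs co-precipitate with EZH2. The genes described here changed in U87MG glioblastoma cells under siRNA against EZH2 and hold at least 1 exon whose small RNA was called as EZH2-associated in K562, T98G or U87MG cells, while sharing no base with a full-length EZH2 RNA target of T98G cells. There are 194 of them among the 1342 rows of the siRNA table (14.5%), and among 237 rows that overlap a small RNA exon (17.7% of the table). The other 43 of those 237 were left out because they overlap a full-length target, as 9.09% of the table does. Members were chosen by the authors' own calls in these 5 lists (the adjusted p of the siRNA comparison and the exon and gene calls), so membership, the lines that call a gene and its direction under siRNA are description, and no test of them was made.

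The labels describe 26 libraries. Small RNA was sequenced from EZH2 precipitates, IgG2a precipitates and input without antibody, in 3 cell lines. They were K562 (an immortalized chronic myeloid leukaemia line, 3 libraries) and T98G and U87MG (immortalized glioblastoma lines, 6 libraries each). K562 has 1 library of each kind, so its calls rest on no replicate, and T98G and U87MG have 2 of each. Long RNA, fragmented and rRNA-depleted, was sequenced from T98G in 6 further libraries, and T98G also gave 1 library by EZH2 iCLIP, whose label names the full-length list. The last 4 hold poly(A) RNA of U87MG cells treated with siRNA for EZH2 or for GFP, 2 per arm. Cells of the precipitation libraries had no treatment, per the labels. One siEZH2 library (replicate 2) has EZH3 in its treatment field but EZH2 in its title, which was followed. The siRNA table has 0 rows named EZH2, so the knockdown was not checked. The sign of its fold changes was not checked either: siEZH2 over siGFP was read from the order of the names alone. With the ratio the other way, every lower and higher below would be exchanged, and 64 members would be lower and 130 higher. The lists hold 0 columns of values for single libraries. No value below therefore has a replicate error, read depth is unknown, and the named cell lines could not be checked against markers.

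In the members, small RNA calls came from 351 exon rows that joined into 290 distinct exon regions. T98G called 166 members, U87MG 53 and K562 43, where the same lists overlap 15%, 5.22% and 4.1% of all table rows. Of the T98G list, 241 of 2573 rows (9.37%) lay in members, of the U87MG list 66 of 669 (9.87%) and of the K562 list 44 of 397 (11.1%). Most members, 139, were called in 1 line, 42 in 2 lines and 13 in all 3. Together 55 members (28.4%) were called in several lines, beside 29.5% of all 237 table genes with a small RNA exon. By pattern, 112 members were called in T98G alone, 14 in K562 alone, 13 in U87MG alone, 26 in T98G and U87MG, 15 in K562 and T98G, and 1, ARHGAP11B, in K562 and U87MG.

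The authors' deposited table listed 130 of the 194 members lower under siEZH2 and 64 higher (67.0% lower, 95% Wilson interval 60.1 to 73.2), beside 50.7% lower over the whole table. Of the 1026 table genes with neither kind of target, the authors' deposited table listed 449 lower (43.8%, 40.8 to 46.8). Of the 79 full-length targets without a small RNA exon it listed 61 lower (77.2%, 66.8 to 85.1), and of the 43 genes with both kinds, 41 (95.3%, 84.5 to 98.7). Members thus stand between the genes with no target and those with both. In the authors' deposited table members had a median log2 fold change of -0.60, with a median of -0.71 among lower and 0.86 among higher members. Only 40 of the 194 members reached an absolute log2 fold change of 1, beside 468 of the 1342 table genes (34.9%). Among these 40 the authors' deposited table had 17 lower and 23 higher (42.5% lower), and over all rows of that size 122 were lower and 346 higher. Most members with such changes were thus higher, as were most table genes with changes of that size.

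**Figure D1:**
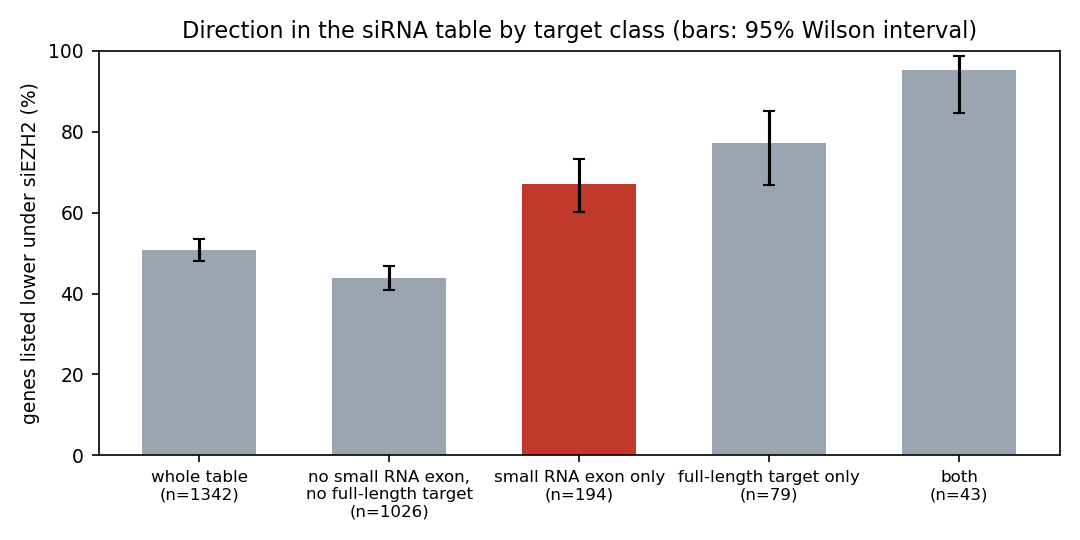
Percent of genes listed lower under siEZH2 in the authors' table (y axis, 0 to 100) for the whole table, genes with no target, members (red), full-length targets only and genes with both; error bars are 95% Wilson intervals over genes. Members, at 67.0%, sit above the genes with no target at 43.8% and below the genes with both at 95.3%.

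Gene size differed between these classes. Members spanned a median of 75.4 kb, genes with neither target 37.4 kb and genes with both kinds of target 35.4 kb. The canonical transcripts of members had a median of 18 exons and 5813 bases (185 of 194 matched by symbol), against 9 exons and 3603 bases in genes with neither target and 23 exons and 5012 bases in genes with both kinds. Lower members had a median of 20 exons and 81.5 kb, and higher members 13 exons and 70.3 kb. The part of gene size in the direction of change was not tested.

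Within the members, the number of called exons also went with direction. Genes that overlap a full-length target were left out by the rule, and no such count over all table genes was made. Lower members also had more exons in which a call could fall (median 20, against 13 in higher members). The part of exon number was not tested. A single exon region was called in 132 members, and the authors' deposited table listed 81 of them lower (61.4%, 52.8 to 69.2). Several regions were called in 62 members, 49 of them lower (79.0%, 67.4 to 87.3). Of the 21 members with 3 or more regions, 20 were lower in the authors' deposited table (95.2%, 77.3 to 99.2). Among these 20, KIAA0753 and URB1 reached 3 regions only with a region named for another gene, TXNDC17 and SNORA80. By number of lines the shares were closer: 89 of 139 members in 1 line were lower (interval 55.8 to 71.5%), 32 of 42 in 2 lines (76.2%, 61.5 to 86.5) and 9 of 13 in all 3 (69.2%, 42.4 to 87.3). Of the 13 members called in U87MG alone, the line in which the knockdown was done, 6 were lower (46.2%, 23.2 to 70.9). These intervals overlap, and the differences between line patterns were not tested.

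**Figure D2:**
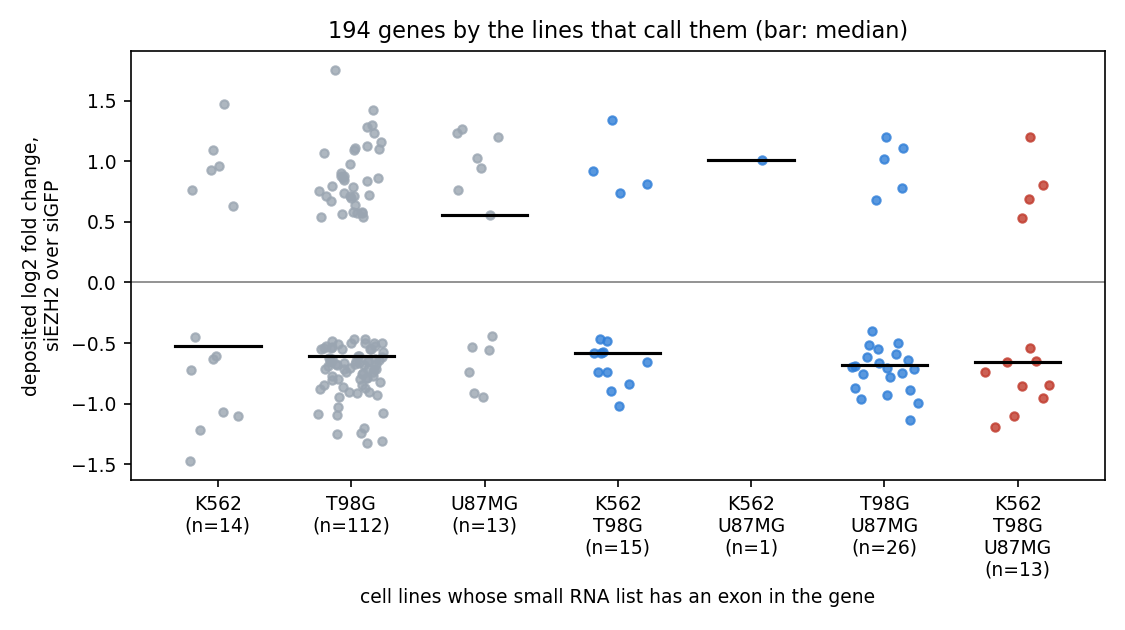
Deposited log2 fold change of each member (y axis, siEZH2 over siGFP) by the lines whose small RNA list has an exon in it (x axis); 1 point is 1 gene, grey for 1 line, blue for 2 and red for 3, and black bars are medians. Every pattern except K562 with U87MG (1 gene) holds genes on both sides of 0, and no gene lies near 0 because the table lists called genes.

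The 13 members called in all 3 lines cover several cellular roles. In 8 of them 1 and the same exon was called in every line. These were exon 14 of 38 of BTAF1, an ATPase that removes TBP from DNA (chr10:93726394-93726514), and exon 2 of 7 of PANK3, a pantothenate kinase of coenzyme A synthesis (chr5:167995651-167996003). They were also exon 11 of 20 of GFPT1, the entry enzyme of hexosamine synthesis (chr2:69575303-69575466), and exon 18 of 27 of SEC31A, a subunit of the outer COPII coat (chr4:83774723-83774868). Exon 20 of 37 of the CDC42 effector kinase CDC42BPA (chr1:227259909-227260000) and exon 9 of 19 of the RAB5 effector RABEP1 (chr17:5264503-5264970) were further such exons. The last 2 were exon 24 of 29 of the nuclear import receptor IPO5 (chr13:98667980-98668035) and exon 3 of 7 of the fucosidase FUCA2 (chr6:143825050-143825389). All 8 are internal and coding only in the canonical transcript, on GRCh37. The authors' deposited table gave log2 fold changes of -1.19 for BTAF1, -1.10 for PANK3, -0.74 for GFPT1, -0.66 for SEC31A and -0.65 for CDC42BPA. It gave 0.53 for RABEP1, 0.68 for IPO5 and 0.80 for FUCA2 in the authors' deposited table, so the 8 do not share a direction.

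In the other 5, no exon was common to all 3 lines. The bicarbonate transporter SLC4A7, the ribosome biogenesis factor URB1, the inhibitor of apoptosis and ubiquitin-conjugating enzyme BIRC6, and the giant ubiquitin ligase HERC1 each had an exon shared by 2 lines. Their log2 fold changes in the authors' deposited table were -0.96, -0.86, -0.85 and -0.54. The K562 call in URB1 is the small nucleolar RNA SNORA80 inside the gene (chr21:33749496-33749631), and no URB1 exon was called in K562. CIT, the citron kinase of cytokinesis, had 4 called exons and shared none between lines: exon 48 of 48 in K562, exon 29 in T98G, and exons 8 and 39 in U87MG. CIT was the only member with 3 or more regions that was higher, at a log2 fold change of 1.20 in the authors' deposited table.

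Of the 42 members called in 2 lines, 33 shared an exon between the lines. The 9 that did not were ITGAV, TRIM33, FUBP1, WWC2, SSFA2, PCMTD2, HSP90AB1, ERBB2IP and ARHGAP11B. The member with the most called regions, 7, was MYCBP2, a very large ubiquitin ligase of 83 exons known for its role in axon biology, with a log2 fold change of -1.13 in the authors' deposited table. T98G called 6 of its exons (17, 36, 47, 56, 68 and 78) and U87MG 5 (17, 47, 67, 68 and 78), so 4 were common. HERC1 and BIRC6 had 5 regions each. BTAF1, SLC4A7, CIT, ASCC3 (a helicase of the activating signal cointegrator complex), NBEA (neurobeachin, a BEACH-domain protein of vesicle traffic) and GBF1 (an exchange factor for ARF GTPases at the Golgi) had 4. The authors' deposited table gave -0.97 for ASCC3, -0.87 for NBEA and -0.70 for GBF1 on the log2 scale.

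**Figure D3:**
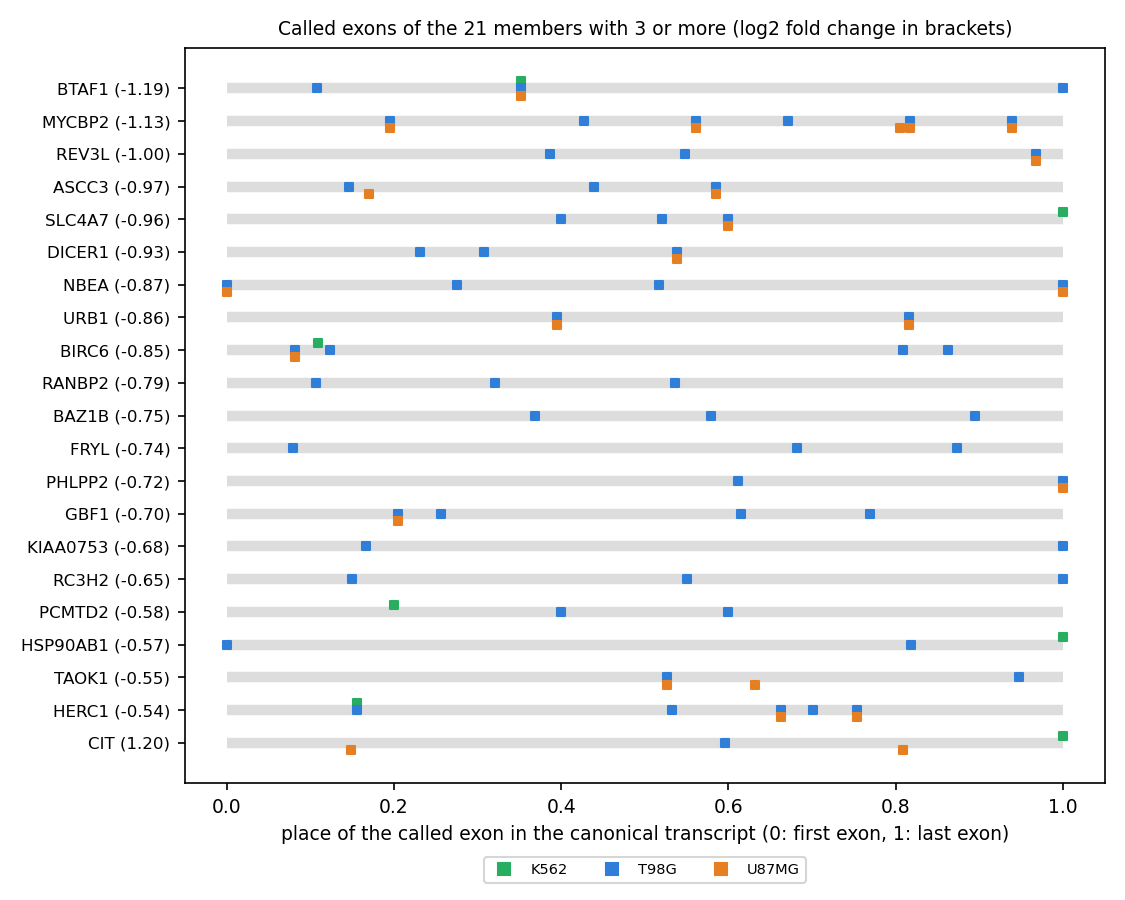
Place of each called exon in the canonical transcript (x axis, 0 for the first exon and 1 for the last) for the 21 members with 3 or more called regions (y axis, with the deposited log2 fold change), coloured by line; calls outside canonical exons or named for another gene are not drawn. Calls are spread along the transcripts, MYCBP2 shows 4 exons called in both T98G and U87MG, and CIT is the only gene of the 21 with a positive value.

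Across all members, the called exons were mostly internal coding exons. Of 351 exon rows, 294 (83.8%, 79.5 to 87.2) matched an internal exon of a canonical transcript, 37 (10.5%) the last, 11 (3.13%) the first and 2 an only exon, and 7 lay outside canonical exons. By content, 283 (80.6%, 76.2 to 84.4) were coding only, 51 coding and untranslated, 8 untranslated only and 2 noncoding. The 3288 called exons outside members were similar in place, with 81.2% internal (79.8 to 82.5). Of these, 74.9% were coding only (73.4 to 76.4) and 7.27% noncoding, against 0.570% noncoding in members. Members were limited to genes of the siRNA comparison, made from poly(A) RNA, and the other exons were not. The rule thus makes the exon sets unlike, and this contrast was not tested. Internal exons called in members lay at a median relative place of 0.509 along the transcript (0 for the first exon and 1 for the last), with quartiles of 0.263 and 0.690. Median width was 193 bp for the K562, 191 bp for the T98G and 164.5 bp for the U87MG rows in members, close to the 188, 187 and 166 bp of the whole lists. The median GC content of called exons was 43.0% in members and 44.4% elsewhere.

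Because the study's title names mispriming in reverse transcription, the sequence beside the small RNA was read at the members. A column of the T98G list was read as the distance between the middle of the small RNA peak and the middle of its exon, and 230 of its 241 rows in members, from 158 genes, gave a peak middle at a whole base. The column's meaning and sign are not given in the sources used here. Its sign and the window of starts used here were settled from the sequence of these same peaks, so the shares below are not independent of that choice. The shortest motif searched was AGAT, the opening bases of the 3′ sequencing adapter. Longer openings were AGATC with 1 more base, then AGATCG with 2 more, and the longest was AGATCGG with 3 more, each counted also within the shorter ones. They were read on the RNA strand, with starts 11 to 15 bases downstream of the peak middle. In each window printed here the peak middle lies after the tenth base, and capitals mark the longest such match. The windows are shown because they hold matches of AGATCG in coding exons, or belong to genes called in all 3 lines.
BAZ1B, exon 18 of 20, chr7:72857064-72857112, minus strand: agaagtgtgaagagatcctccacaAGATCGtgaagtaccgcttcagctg
RC3H2, exon 12 of 21, chr9:125621213-125621261, minus strand: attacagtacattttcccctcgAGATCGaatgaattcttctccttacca
PANK3, exon 5 of 7, chr5:167988445-167988493, minus strand: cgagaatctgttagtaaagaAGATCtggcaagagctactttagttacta
SEC31A, exon 18 of 27, chr4:83774723-83774771, minus strand: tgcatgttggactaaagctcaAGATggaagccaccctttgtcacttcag
BIRC6, exon 7 of 74, chr2:32626349-32626397, plus strand: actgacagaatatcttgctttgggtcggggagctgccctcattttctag

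BAZ1B is a bromodomain protein of chromatin remodelling complexes, and RC3H2 (roquin-2) an RNA-binding protein of mRNA decay. The SEC31A window lies in the exon called in all 3 lines and continues only to the fourth adapter base. The PANK3 window lies in an exon called in T98G and U87MG, not in the PANK3 exon called in all 3 lines. The BIRC6 window, from an exon called in T98G and U87MG, has no AGAT there. Of the exons called in all 3 lines, those of GFPT1, RABEP1 and SEC31A had AGAT in the window. Those of BTAF1, PANK3, CDC42BPA, IPO5 and FUCA2 did not. AGAT was found in the window at 41 of 230 member peaks (17.8%, 13.4 to 23.3), in 40 genes, and 20 bases further downstream at 5 (2.17%, 0.932 to 4.99). Under the opposite sign, AGAT was in the window at 4.35% of member peaks. AGATC was found at 22 against 2, AGATCG at 7 against 0, and AGATCGG at 3 against 0. Among the peaks with the longest match were those in CHKA (choline kinase) and FAT4 (an atypical cadherin), and the 4 with AGATCG lie in BAZ1B (2 peaks), MAPRE1 and RC3H2. The other 189 member peaks had no AGAT in the window. At the 2233 T98G peaks outside members the share with AGAT was 26.6% (24.8 to 28.5) against 3.54% further downstream, so matches were less frequent at member peaks. That difference was not tested, since peaks of 1 list are not replicates.

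**Figure D4:**
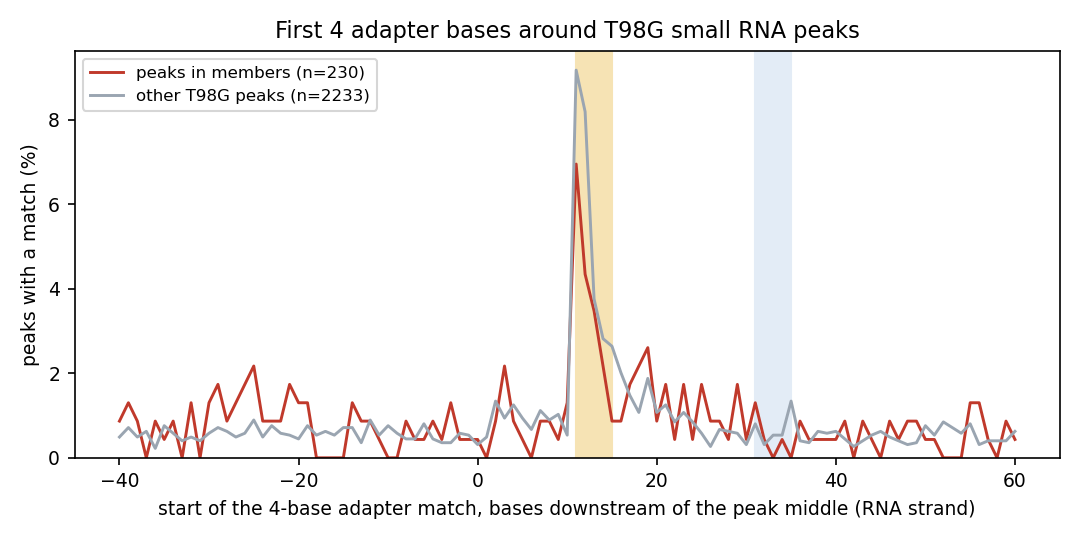
Percent of T98G peaks (y axis) at which the first 4 adapter bases start at each position relative to the peak middle (x axis, bases downstream on the RNA strand), for 230 peaks in members (red) and 2233 other peaks (grey). Both lines rise at 11 bases, to 6.96% in members; yellow marks the window of 11 to 15 bases and blue the window 20 bases further.

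K562 and U87MG rows give no peak, so whole exons were read. Of 351 member exons, 29 held AGATCG in the RNA's sense (8.26%, 5.81 to 11.6) and 4 in antisense (1.14%, 0.444 to 2.89). Called exons of other genes held it in sense in 10.6% (9.58 to 11.7) and in antisense in 2.59%. At least 1 such exon was found in 26 of the 194 members (13.4%), in 18 of 130 lower members (13.8%, 8.94 to 20.8) and 8 of 64 higher members (12.5%, 6.47 to 22.8). These intervals overlap, and a relation between the motif and the direction of change was not tested. None of the 8 exon regions called in all 3 lines held AGATCG, which with 8 regions allows a share of up to 32.4%. It was in 2 of 45 regions called in 2 lines and 25 of 237 called in 1.

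The members were sorted by role from textbook knowledge, after their names and values had been seen, and the counts that follow describe these 194 genes only.

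Ubiquitin ligases, deubiquitinases, proteasome subunits and autophagy genes made up 16 members, all called in T98G, as were 85.6% of all members. Of these 16 the authors' deposited table listed 14 lower (median log2 fold change -0.66). Beside MYCBP2, BIRC6 and HERC1 they included TRIM33, a ligase acting on SMAD signalling (-0.75, T98G and U87MG), and NBR1, an autophagy receptor (-0.89, K562 and T98G), in the authors' deposited table. The deubiquitinases USP34, USP14 and UCHL1, the conjugating enzyme UBE2G2, the scaffold CUL2, the proteasome activator PSME4, the proteasome ATPase PSMC6, the caspase inhibitor XIAP and the autophagosome protein MAP1LC3B were lower and called in T98G alone. LONRF1 (0.83) and PELI2 (0.98), RING-type ligases called in T98G alone, were the 2 higher genes of the authors' deposited table. The gene list fixed by symbol for ubiquitin and proteasome held 10 members, and 10 were lower. In the whole table, which holds only called genes, 30 of the list's 42 genes were lower, these members included.

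Genes of membrane traffic and organelle contacts were the most numerous, at 28, and the authors' deposited table listed 21 lower (median -0.70). The lowest were EHD1 of endocytic recycling (-1.24), the SNARE regulator STXBP5 (-1.20) and the Golgi protein BLZF1 (-1.02), each called in T98G alone in the small RNA lists and lower in the authors' deposited table. Coat and adaptor genes were SEC31A, AP1B1 (-0.78) and AP4E1 (-0.75), the latter pair called in T98G and U87MG and lower in the authors' deposited table. ARF exchange factors were GBF1 (T98G and U87MG) and ARFGEF2 (-0.67 in the authors' deposited table, T98G). The lipid-transfer proteins VPS13A, VPS13B and OSBP, the endosomal tether EEA1, the phosphoinositide kinase PIKFYVE and the ER proteins RRBP1 and REEP5 were lower and called in T98G alone. VPS53 of the GARP complex was called in K562 and T98G, GLG1 in K562 alone, HPS5 of lysosome-related organelles and KIAA1715 (lunapark) in T98G and U87MG, and TM9SF3 in U87MG alone, all lower. The 7 higher were RABEP1, the exocyst subunit EXOC4, RAB3GAP1, the melanosome linker MLPH, the Golgi protein GOLIM4 (0.78, T98G and U87MG), the nuclear envelope protein TOR1AIP1 (1.10, T98G) and MCTP1 (1.24, U87MG) in the authors' deposited table. By symbol, the membrane traffic list had 12 of 13 members lower and 34 of 42 genes lower in the whole table.

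RNA processing, translation and nuclear transport held 23 members, and the authors' deposited table listed 21 lower (median -0.67). Both microRNA processing nucleases were among them: DICER1 (-0.93, 3 exons in T98G and 1 in U87MG) and DROSHA (-0.74, U87MG alone) in the authors' deposited table. Helicases included ASCC3 and DDX1 (-0.50), the latter called in T98G alone and lower in the authors' deposited table. RNA-binding and processing genes were ZMAT3 (-1.09), the splicing regulator MBNL2 (-0.82), FUBP1 (-0.74, K562 and T98G), ANKRD17, RC3H2, the mRNA export adaptor FYTTD1, the tRNA CCA-adding enzyme TRNT1, the polyadenylation nuclease CPSF3, LENG8 and the initiation factor subunit EIF3A, which at -0.40 had the smallest change of all members in the authors' deposited table (T98G and U87MG). MSI2, an RNA-binding regulator of translation (0.63, K562 alone), and IPO5 were the 2 higher in the authors' deposited table. Lower also were RANBP2, a nucleoporin of the cytoplasmic filaments, and its partial copies RGPD4, RGPD5, RGPD6 and RGPD8, from -0.80 to -0.55 in the authors' deposited table.

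The RANBP2 and RGPD calls cannot be read as independent genes, so the 21 lower genes of this group are fewer independent ones. Without the RGPD genes, a choice made after seeing the data, 190 members remained, 66.3% of them lower. The called 577 bp exons of RGPD5, RGPD6 and RGPD8 are identical, and each is 97.4% identical to the RANBP2 exon of that width. The called exons 10 of RANBP2 and RGPD4 match at 181 of 182 bases, and the windows at their T98G peaks are the same. Both windows run past the end of the exon, at chr2:109367901 in RANBP2 and chr2:108475751 in RGPD4, so their last bases are intron. They are printed here, chosen after the values were seen, to show that a short read from these bases could not tell the copies apart.
RANBP2, exon 10 of 29, chr2:109367872-109367920, plus strand: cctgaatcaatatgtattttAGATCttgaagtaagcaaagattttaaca
RGPD4, exon 10 of 23, chr2:108475722-108475770, plus strand: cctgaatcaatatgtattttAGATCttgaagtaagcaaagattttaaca

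The called 180 bp exons of RGPD6 and RGPD8 are also identical. How the authors placed reads with several matches is not given in the sources used here.

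Mitosis and DNA repair was the only role group with most members higher: the authors' deposited table listed 7 of 8 higher (median 1.15). They were the spindle orientation protein GPSM2 (1.42, T98G), the bipolar spindle motor KIF11 (1.34, K562 and T98G), the cytokinesis motor KIF20B (1.28, T98G), CIT, RCCD1 (1.10, T98G), the condensin subunit SMC4 (0.88, T98G) and the anaphase-promoting complex subunit CDC27 (0.54, T98G) in the authors' deposited table. KIF11 exon 2 of 22 was called in both of its lines (chr10:94366022-94366154). One of the 2 T98G exons in GPSM2 is named for its neighbour CLCC1. REV3L, the catalytic subunit of DNA polymerase zeta, was the lower one (T98G and U87MG, in 3 exon regions). By symbol, the cell cycle list had 4 of 5 members higher, where the lower one, CDC42BPA, is a cytoskeletal kinase, and 15 of 25 genes higher in the whole table.

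Adhesion and matrix genes were divided, with 7 of 13 lower in the authors' deposited table. Integrin subunits went both ways: ITGA6, a laminin receptor subunit, had the largest increase of all members (1.75, T98G), ITGA4 was higher (1.16, T98G) and ITGAV lower (-0.88, T98G and U87MG) in the authors' deposited table. The other higher genes were IGSF3 (1.27, U87MG), the guidance factor SEMA5A (1.24), the proteoglycan VCAN (1.20, U87MG) and the link protein HAPLN3 (0.93, K562) in the authors' deposited table. Lower were FAT4 (-0.91), the lysyl oxidase LOXL3 (-0.65), the adherens junction protein CTNNA1 (-0.55), the collagen lysyl hydroxylase PLOD1 (-0.54) and the metalloprotease ADAM9 (-0.47), all from T98G, and the matrix glycoprotein SPARC (-0.45, K562), in the authors' deposited table. By symbol, 6 of 10 members of the matrix and adhesion list were lower, against 19 of 47 in the whole table. Among these 6 is LRP6, sorted below with signalling.

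Metabolic enzymes, transporters and lysosomal hydrolases held 27 members, 15 of them lower in the authors' deposited table. K562 called 12 of the 27, beside 22.2% of all members, and this difference was not tested. Lipid enzymes had the lowest values: the lysophospholipid acyltransferase MBOAT7 (-1.47, K562), the fatty acid hydroxylase CYP4F11 (-1.33, T98G) and the desaturase SCD (-1.25, T98G) in the authors' deposited table. Also lower were PANK3, GFPT1, SLC4A7, the ferredoxin reductase FDXR (-1.07, K562), the cystine transporter SLC7A11 (-0.84, K562 and T98G) and the ethanolamine kinase ETNK1 (-0.71, T98G) in the authors' deposited table. MFSD1, NAA35, the mitofusin MFN1, TMCO1 and the complex I subunit NDUFS1 were also lower. The lysosomal proteases CTSH (1.47, K562) and CTSC (1.11, T98G) were listed higher in the authors' deposited table, as was FUCA2, a secreted relative of the lysosomal fucosidase. Glutamine synthetase GLUL (1.09, K562), the phospholipid enzymes LPCAT4 (0.94, U87MG), GNPAT (0.92, K562 and T98G) and CHKA (0.88, T98G), ABHD10, the channels TRPC1 and TMEM38B and the calcium pump ATP2B1 were also higher in the authors' deposited table.

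Chromatin and transcription held 25 members, 16 of them lower in the authors' deposited table (median -0.61). The lowest were the kinase HIPK3 (-1.31, T98G), which acts on transcription factors, the histone gene HIST1H2BJ (-1.21, K562) and BTAF1 in the authors' deposited table. HIPK2 (-0.95), the DNA glycosylase TDG (-0.88), ETS1 (-0.77), BAZ1B (-0.75), ANKRD11 (-0.71), SPTY2D1 (-0.70), the RNA polymerase I subunit POLR1A (-0.68), CUX1 (-0.61), AHR (-0.53) and GTF2I (-0.51) were lower in the authors' deposited table and called in T98G alone. NCOA7 was called in K562 and T98G, ZMYND8 in K562 and UBP1 in U87MG, all lower. The higher genes were the clock gene relatives ARNTL2 (1.11, T98G and U87MG) and PER3 (0.68, T98G), HMGB2 (0.96, K562), the methyltransferase SMYD3 (0.81, K562 and T98G), the heterochromatin protein CBX3 (0.58, T98G), and PYGO1, ZZZ3, ELL2 and ZNF516 (0.72 to 0.80, T98G) in the authors' deposited table. By symbol, all 3 members of the chromatin list were lower, as were 14 of its 15 genes in the whole table.

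Signalling receptors, kinases and GTPase regulators held 24 members, 16 of them lower in the authors' deposited table. TGFBR2, the type II receptor for TGF-beta (-1.10, K562), the kinase ITPKC (-1.09), the exchange factor DOCK3 (-0.91, U87MG), MPRIP (-0.91), PLCB3 (-0.78), FRYL (-0.74) and the phosphatase PHLPP2 (-0.72, T98G and U87MG) were the lowest in the authors' deposited table. Further lower genes were the WNT co-receptor LRP6, IP6K1 and AKAP11 (T98G), WWC2, TAOK1 and PTPRK (T98G and U87MG), WNK1 and ERBB2IP (K562 and T98G), and CDC42BPA. Higher were BAIAP2L1 (1.30, T98G), the coagulation receptor F3 (1.20, T98G and U87MG), the RHOA exchange factor NET1 (1.13, T98G), ARHGAP11B (1.01), the cytokine receptors LIFR (0.86, T98G) and IL1RAP (0.68, T98G and U87MG), CARD8 and the complement regulator CD55 in the authors' deposited table.

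Cytoskeleton, cilium and centrosome genes numbered 13, with 8 lower in the authors' deposited table. None was called in K562, which called 22.2% of all members, and this difference was not tested. The cilium and centrosome genes TTC18 (-1.07), WDR52 (-0.94, U87MG), ANKRD26 (-0.93), ALMS1 (-0.85), IFT20 (-0.80) and KIAA0753 (-0.68) were lower in the authors' deposited table, as was the microtubule tip protein CLIP1 (-0.67, T98G and U87MG). KRT79 (1.03, U87MG), KIAA1430 (0.86), DTNA (0.76, U87MG), the tip protein MAPRE1 (0.64) and SOGA2 (0.58) were higher in the authors' deposited table, with T98G calling those for which no line is given. Chaperones and folding genes numbered 9, of which 6 were lower and all were called in T98G, as were 85.6% of all members. HSPA4L (-1.02, K562 and T98G), HSP90AB1 (-0.57, K562 and T98G), DNAJA1 (-0.54), DNAJB6 (-0.52), TXNDC17 (-0.68) and the signal peptide peptidase HM13 (-0.50, T98G and U87MG) were lower in the authors' deposited table. The endoplasmic reticulum chaperone HSP90B1 (0.72), the reticulum isomerase FKBP7 (0.71) and DNAJC18 (0.90) were higher, so the cytosolic and the reticulum HSP90 genes had opposite signs in the authors' deposited table. No role was assigned to 8 members: FAM177A1, SSFA2, PCMTD2, CSMD2 and TTC17 (lower) and IGIP, SEL1L3 and C14orf132 (higher).

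The remaining gene lists fixed by symbol held few members. In the RNA list 5 of 6 members were lower, and 29 of 33 genes in the whole table. The 6 include the RNA polymerase I subunit POLR1A, sorted above with transcription, and the import receptor IPO5. In the list of motors, cilium and centrosome 3 of 5 members were lower, and 9 of 15 in the whole table. Among these 3 is MAP1LC3B, sorted above with autophagy. The 4 members matched by the actin and spectrin list (ANKRD26, ANKRD17, ANKRD11 and SPTY2D1) share only the start of a symbol with it and are no actin proteins; all were lower, as were 13 of the list's 16 genes. For growth factors and receptors 3 of 5 members were lower (32 of 54 in the table), for GTPase regulators 1 of 4 (6 of 29), for transporters 2 of 4 (24 of 51) and for metabolic enzymes 4 of 4 (15 of 19). The transcription factor list held only ZNF516, which was higher, where 20 of its 36 genes in the table were lower. In each of these lists the members are too few to be set apart from the list.

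**Figure D5:**
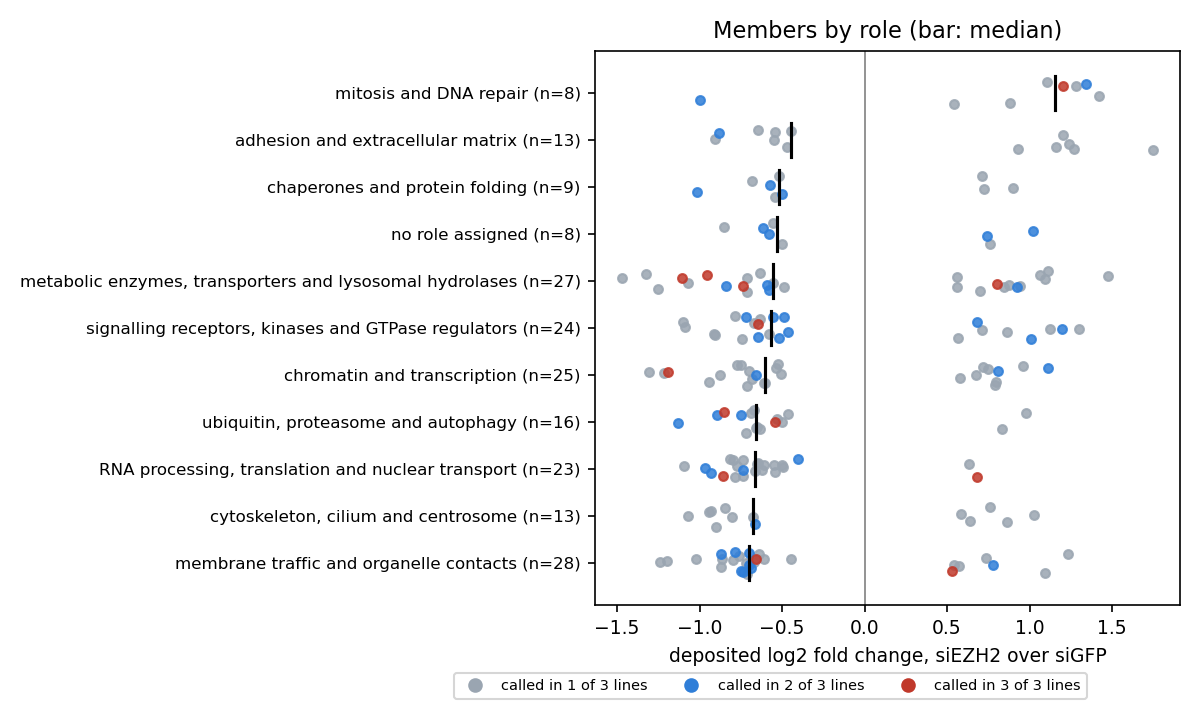
Deposited log2 fold change (x axis) of each member by role group (y axis, ordered by median, black bars); 1 point is 1 gene, coloured by how many of the 3 lines call it. Mitosis and DNA repair is the only group with its median above 0, at 1.15, and all other medians lie between -0.70 and -0.45.

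Retained introns listed by the authors for U87MG lay in 5 members, of 6 such genes in the whole table. They were an intron of BIRC6 (chr2:32620660-32626232), which borders exon 7, called in T98G and U87MG, and one of SLC4A7 (chr3:27442534-27444631), whose bordering exon 16 of 26 was called in the same lines. The others lay in CSMD2 (chr1:34046498-34049243), KRT79 (chr12:53216162-53216801) and WDR52 (chr3:113046665-113049016), each beside an exon called in U87MG alone. BIRC6, SLC4A7, CSMD2 and WDR52 were lower (-0.55 for CSMD2) and KRT79 higher in the authors' deposited table. The list was made of introns beside U87MG exons, so this overlap was set by its construction.

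Some members rest on little or on a neighbour's exon. ITPKC, FAM177A1, LOXL3 and TMCO1 share bases only with exons of the other strand, named for C19orf54, PPP2R3C, HTRA2 and RP11-466F5.8, and SEMA5A only with an exon of the noncoding gene CTD-2201E9.2. ITPKC had the smallest overlap, 5 bases. The next smallest, 43 bases in KIAA1715, is a whole exon of that gene, called in T98G and U87MG. Just outside the rule, MOK lies 826 bp from the nearest called exon and GRAMD1C 1332 bp. On the other side of the rule, the member nearest to a full-length target is HSP90AB1, 212 bp away, whereas WDR34, which holds a small RNA exon, was left out for 2 bases shared with a full-length target. The smallest changes among members in the authors' deposited table were -0.40 for EIF3A and 0.53 for RABEP1.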

How the data were processed

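The 6 deposited lists include the siRNA table, the full-length list and the 3 small RNA lists, which chose the members. Per the labels, cutadapt removed adapters and the authors aligned reads to hg19 (small RNA with BWA, iCLIP with Bowtie2, siRNA libraries with Tophat 2.0.11 without strand), counted reads with bedtools or featureCounts and called exons and genes with DESeq2; peaks came from pyicoclip. CASAVA 1.8 is named in the submitters' processing notes. The siRNA table holds the authors' deposited log2 fold change, at an adjusted p of 0.05 by its name, read as siEZH2 over siGFP from the order of names, which no row could check. The deposited score column of the T98G small RNA list was read as a distance, with a sign settled from the sequence; it was subtracted from the middle of the exon to place the peak. The score columns of the other lists were not used as measurements.

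Regions sharing 1 base on any strand were taken as overlapping (pandas 2.3.3, numpy 2.4.6; overlap code checked with bedtools 2.31.1 and tested on simulated data). Intervals are 95% Wilson intervals (scipy 1.17.1) and cover counting error over genes or exons only. Sequence and exon numbers are from GRCh37 and GENCODE canonical transcripts; coordinates are 1-based. Members, gene lists and motifs were chosen with earlier results of these data known, and roles after the values were seen. Genes were named in full where called in all 3 lines, with 3 or more regions, among the 10 largest changes each way, or beside a retained intron. The 13 gene lists match symbols or their starts, so CDC42BPA falls in the cell cycle list. Alternatives are given in the closing section. Columns of values for single libraries numbered 0, and no test was made. Some items are not reported here by name, and group counts include them.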

Additional observations from a re-analysis of the deposited data

How the results depend on the processing

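No paired analysis was possible because the lists hold no values for single libraries. The direction of the members depends on the size limit, as does that of the whole table. At an absolute log2 fold change of at least 1, 40 members remained, 42.5% lower with a median of 1.05. Of the 468 table genes of that size, 122 were lower, a smaller share than in the members. Of the 40 members, 10 were called in several lines. Without the T98G list there were 82 members, 14 of them called in several lines, and without the U87MG list 28 were called in several lines; the share lower stayed at 67.1% and 68.5%. Requiring the same strand, a larger overlap, symbols or, chosen after seeing the data, an exon of the gene's own name left 189 to 193 members, and excluding full-length targets by strand or symbol added SON and WDR34, for 196. Reading the T98G distance with the other sign lowered the share of member peaks with AGAT to 4.35%; the other choices for the motif shares stayed within the intervals. Depth is unknown, so an exon not called in a line may lack reads there.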
